A study of Homo sapiens with 12 samples.

Results

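Long noncoding RNAs that are often studied in tumours (MALAT1, NEAT1, HULC, UCA1, PVT1, GAS5, SNHG1, DANCR, TUG1 and MEG3) were followed through an RNA-seq study of the adhesion molecule CD146. These 10 genes were taken by name, by a rule that uses no measured value, though they were proposed with earlier results of these data known. All 10 had a row among the 61806 gene IDs of the count table. The study measured poly(A)-selected RNA in 12 libraries, 4 groups of 3, from cell lines established from human liver tumours. In cells labelled Hep3B, an shRNA that is switched on by a tetracycline-responsive (Tet-on) system was directed either at a control sequence (control shRNA) or at CD146 (CD146 shRNA). HepG2 cells carried either the pLVX vector alone (pLVX) or a vector with CD146 (CD146 overexpression). The cells labelled Hep3B were grown in DMEM and HepG2 in MEM with pyruvate. Line, medium and vector therefore cannot be told apart when the lines are compared. Nothing in the labels says that the 3 libraries of a group came from separate cultures, or whether the numbers 1 to 3 of the shRNA titles stand for different hairpins, so the spread behind each p-value is that among libraries and could be purely technical.

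Long noncoding RNAs are transcripts made by RNA polymerase II that are not translated into a known large protein, and many stay in the nucleus. NEAT1 is the scaffold on which paraspeckles, nuclear bodies of RNA-binding proteins, are built, and the neighbouring MALAT1 sits in nuclear speckles beside splicing factors. GAS5 and SNHG1 carry small nucleolar RNAs (snoRNAs) in their introns, and their spliced transcripts are known to be degraded by nonsense-mediated decay when ribosomes engage them. PVT1 lies beside the MYC gene, HULC was named for its high level in liver cancer, UCA1 for urothelial cancer, and MEG3 is an imprinted RNA that is often silent in liver tumours.

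Library totals ran from 12772991 to 18129816 counts. The transcript of CD146, MCAM, was at 15.7 ± 0.51 FPKM (SD, n = 3) with control shRNA and 3.23 ± 0.30 FPKM with CD146 shRNA. It was at 3.07 ± 0.07 FPKM with pLVX and 266 ± 3.50 FPKM with CD146 overexpression, so both perturbations went the way of their labels. FPKM is a fragment count scaled by gene length and by the library's total. The hepatocyte label was less clear. The summed level of 20 hepatocyte markers, in CPM (counts scaled to a common library total, not to length), was 69640 to 71820 in the pLVX libraries and 64630 to 65280 in the overexpression libraries but 13.1 to 19.8 CPM in 5 of the 6 libraries labelled Hep3B, in which ALB had 0 to 5 counts and AFP 0 to 1. CD146 shRNA replicate 3 stood apart with 94.6 CPM, 298 ALB counts and 72 AFP counts. These libraries are therefore called "labelled Hep3B" throughout.

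MALAT1 and the long form of NEAT1 end in an unusual way. They are cut by RNase P instead of being polyadenylated, and the new end is protected by a triple helix in which a U-rich run pairs with an A-rich tail. The ends of their annotated transcripts (GENCODE v29, written as DNA, 5′ to 3′) are shown because libraries selected on poly(A), as here, capture such ends poorly. The capitals mark the last 10 bases of NEAT1, AAAAGCAAAA, and their reverse complement, the U-rich run TTTTGCTTTT.
NEAT1: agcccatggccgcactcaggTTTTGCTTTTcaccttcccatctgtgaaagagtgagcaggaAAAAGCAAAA
MALAT1: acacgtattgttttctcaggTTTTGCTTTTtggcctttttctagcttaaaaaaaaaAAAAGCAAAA

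The NEAT1 window is the last 71 bases of the 22743-base transcript. The MALAT1 window lies 353 bases before the annotated end of a transcript of 8708 bases. Among 14994 lncRNA genes of the annotation, 2 (0.0133%) had the U-rich run in the 150 bases before the A-rich one, and these were MALAT1 and NEAT1. The letters were taken from NEAT1 with the MALAT1 end known, so its rarity elsewhere is a description. The counts of both genes are those of whatever passed poly(A) selection. NEAT1 counts do not separate its short polyadenylated form from the long form that ends in the sequence shown.

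In GENCODE v29 (GRCh38), NEAT1 lies on chromosome 11 from 65422774 to 65445540 and MALAT1 on the same chromosome from 65497688 to 65506516, both on the plus strand. SNHG1 lies further up chromosome 11, from 62851988 to 62855914 on the minus strand. GAS5 is on chromosome 1 from 173863900 to 173868882 (minus), PVT1 on chromosome 8 from 127794533 to 128101253 (plus), and TUG1 on chromosome 22 from 30969245 to 30979395 (plus). TUG1 is typed as a lncRNA in GENCODE v29 but as protein coding in RefSeq, unlike the other members. DANCR is on chromosome 4 from 52712404 to 52720351, UCA1 on chromosome 19 from 15828206 to 15836326 and MEG3 on chromosome 14 from 100779410 to 100861031, all on the plus strand. The values below are for whole genes, all exons together.

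In the table per length, the members fell into an abundant set, a low set and a set near or below detection. GAS5, SNHG1, NEAT1 and TUG1 were between 26.5 and 125 FPKM in every library. MALAT1, PVT1 and DANCR were between 1.07 and 7.82 FPKM. The FPKM imply lengths of 25.4 kb for PVT1, 10.2 kb for DANCR and 8.83 kb for MALAT1, so these sets hold per length only. In the control shRNA group PVT1 ranked 333 among annotated lncRNA genes by FPKM but 22 by counts. DANCR ranked 471 and 96, and MALAT1 233 and 61. With control shRNA the order was GAS5, SNHG1, NEAT1, TUG1, MALAT1, PVT1 and DANCR, and no neighbours in that order overlapped. With CD146 shRNA NEAT1 moved to the top, and the order of the others stayed. In both HepG2 groups the order was NEAT1, SNHG1, TUG1, GAS5, DANCR, MALAT1 and PVT1, and the libraries of TUG1 and GAS5 overlapped. By counts, which also reflect its length, NEAT1 ranked 1st of all annotated lncRNA genes in each of the 4 groups.

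**Figure D1:**
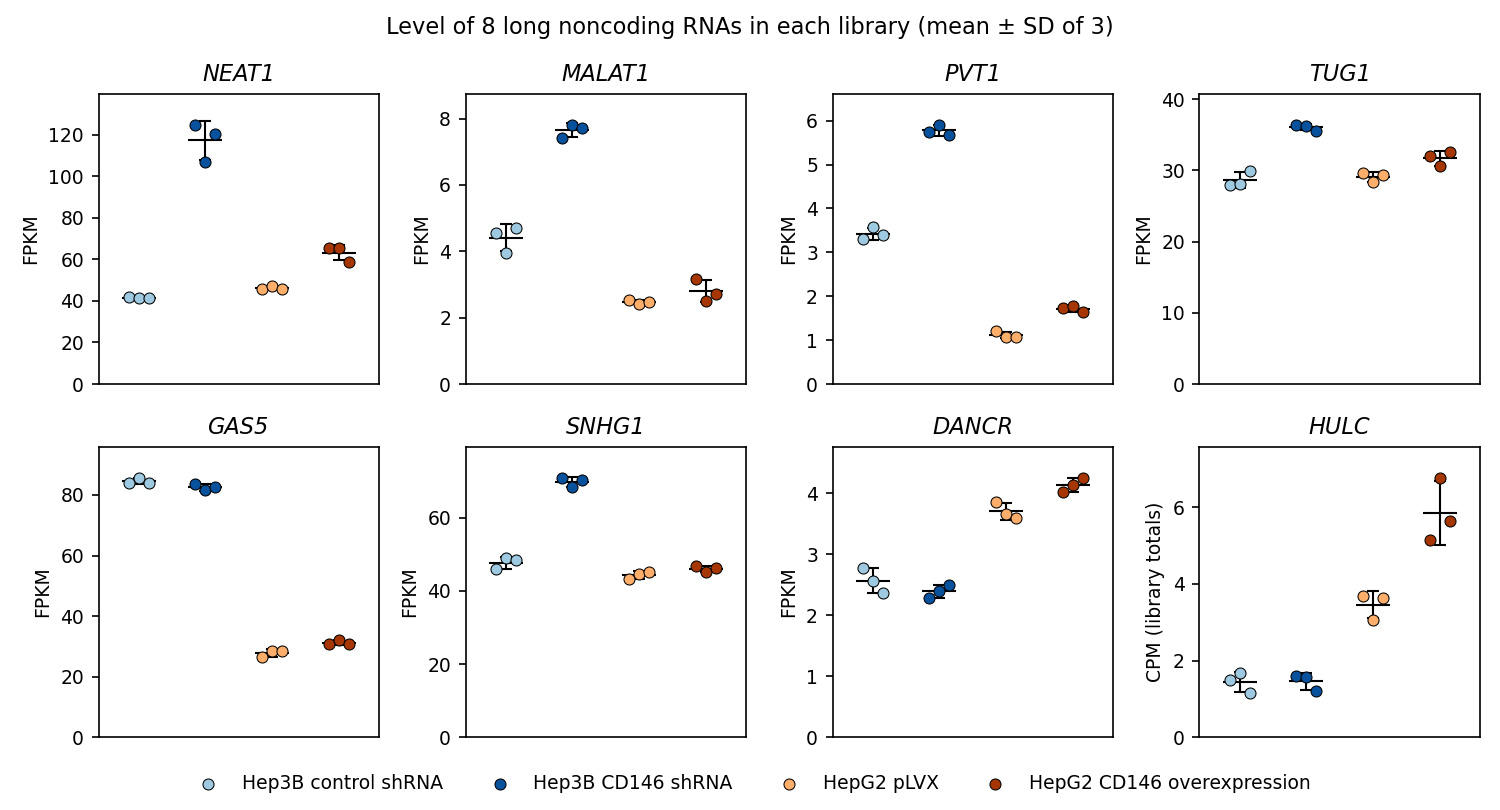
Level of 8 long noncoding RNAs in each library (points) with the mean ± SD of the 3 libraries of a group (bars), as FPKM, or as CPM for the gene row named HULC. NEAT1 lies between 107 and 125 FPKM in the 3 CD146 shRNA libraries and between 41.3 and 65.5 FPKM in the other 9, while GAS5 differs mainly between the lines.

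With CD146 shRNA, 5 of the 8 members that could be tested were higher than with control shRNA (NEAT1, MALAT1, PVT1, SNHG1 and TUG1) and 0 were lower. Of all 16968 genes tested, 55.3% were called, 26.8% higher and 28.5% lower, so a call by itself was common in this comparison. The balance of these calls depended on scaling, with 5463 higher and 3891 lower under upper-quartile scaling and 4117 and 5311 with library totals, against 4555 and 4830 after TMM, while the same 5 members were called under each. The TMM-scaled values of the groups did not overlap for 5 of the 8 members, against 59.8% of all genes. UCA1 and MEG3 did not pass the filter on low counts. The median log2 fold change was 0.48 over the 8 members and 0.00 over all genes tested. For the 2502 lncRNA genes tested it was 0.32, with 890 called higher and 129 lower. Calls here and below are edgeR quasi-likelihood tests with Benjamini-Hochberg adjustment over all genes tested, at an adjusted p under 0.05. With 3 libraries against 3, an exact permutation test of a single gene cannot go below p = 0.1.

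NEAT1, the paraspeckle scaffold, was at 42.0, 41.3 and 41.5 FPKM in the control shRNA libraries and at 125, 107 and 120 FPKM in the CD146 shRNA libraries. The lowest CD146 shRNA library was far above the highest control. NEAT1 rose by a log2 fold change of 1.53 ± 0.05 (SE), or 2.89-fold (edgeR, adjusted p = 2.4e-27). Its share of all counts was 0.0947% ± 0.0009 (SD, n = 3) with control shRNA and 0.267% ± 0.021 with CD146 shRNA. The share of all other lncRNA genes together went from 1.59% ± 0.02 to 1.94% ± 0.05. NEAT1 thus made up 5.63% of lncRNA counts with control shRNA and 12.1% with CD146 shRNA.

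MALAT1, the speckle RNA on the same stretch of chromosome 11, was at 4.56, 3.95 and 4.71 FPKM with control shRNA and 7.43, 7.82 and 7.73 FPKM with CD146 shRNA. The groups were well apart. MALAT1 rose by a log2 fold change of 0.83 ± 0.06 (edgeR, adjusted p = 4e-15). PVT1, on chromosome 8, was at 3.31, 3.58 and 3.39 FPKM with control shRNA and 5.75, 5.91 and 5.68 FPKM with CD146 shRNA. It rose by 0.79 ± 0.05 on the log2 scale (edgeR, adjusted p = 7.7e-18), again with no overlap between the groups.

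The snoRNA hosts did not move as one. SNHG1, which hosts several box C/D snoRNAs, was at 45.9, 49.0 and 48.4 FPKM with control shRNA and 70.9, 68.4 and 70.3 FPKM with CD146 shRNA. It rose by 0.59 ± 0.04 on the log2 scale (edgeR, adjusted p = 3.7e-15), and its groups did not overlap. GAS5, named for its rise in growth-arrested cells, was at 84.0, 85.6 and 83.9 FPKM with control shRNA and 83.7, 81.5 and 82.5 FPKM with CD146 shRNA. These values were slightly lower in the CD146 shRNA libraries as FPKM, but after TMM scaling the GAS5 log2 fold change was 0.00 ± 0.04 (edgeR, adjusted p = 0.96). DANCR, an RNA described as holding back differentiation, was at 2.36 to 2.78 FPKM with control shRNA and 2.28 to 2.49 FPKM with CD146 shRNA, overlapping ranges, with a log2 fold change of -0.07 ± 0.08 (edgeR, adjusted p = 0.46).

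TUG1, a nuclear and cytoplasmic RNA first described in the retina, was at 27.95, 28.13 and 29.97 FPKM with control shRNA and 36.4, 36.3 and 35.6 FPKM with CD146 shRNA. The groups did not overlap, and TUG1 rose by 0.37 ± 0.04 on the log2 scale (edgeR, adjusted p = 5.7e-10), the least of the 5 called members. The libraries without CD146 shRNA replicate 3, which held hepatocyte counts, gave the same 5 calls. Some markers of other cells moved with this comparison. The summed level of 5 endothelial markers was 2.88 to 3.48 CPM with control shRNA and 23.5 to 24.4 CPM with CD146 shRNA, with KDR at 0 in all of them, and that of 6 fibroblast and stellate markers was 58.4 to 67.1 and 93.4 to 116 CPM. Of these lists 2 of 3 and 3 of 3 tested genes rose. In each list, however, 1 gene reached 10 CPM with CD146 shRNA. The lowest counts there were 270 for CDH5 and 1164 for COL1A1, which made up most of the 2 sums. The 5 leukocyte markers summed to 0.29 to 1.70 CPM, and 13 mitochondrially encoded mRNAs took 7.03% ± 0.13 of counts with control shRNA and 8.84% ± 0.46 with CD146 shRNA. Their part in the members' changes was not tested.

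**Figure D2:**
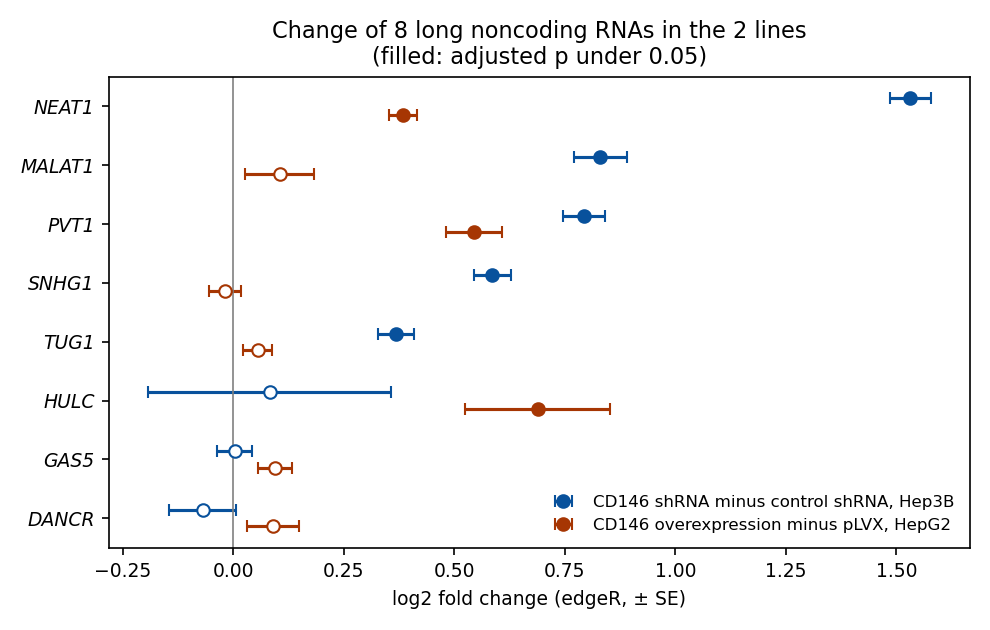
log2 fold change (edgeR, ± SE) of 8 members with CD146 shRNA in cells labelled Hep3B (blue) and with CD146 overexpression in HepG2 (brown); filled points have an adjusted p under 0.05. NEAT1 and PVT1 are filled in both, and no member is filled on the negative side.

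With CD146 overexpression in HepG2, 3 of the 8 tested members were higher (NEAT1, PVT1 and the row named HULC) and 0 were lower. Of 15300 genes tested, 19.8% were called, 9.55% higher and 10.3% lower. The TMM-scaled values did not overlap for 4 of the 8 (the called 3 and GAS5), against 33.6% of all genes. The median log2 fold change was 0.10 over the members, 0.05 over 1908 lncRNA genes and 0.00 over all genes tested. Of these lncRNA genes 8.12% were called, 107 higher and 48 lower. The count of members depends on scaling: with library totals in place of TMM, 6 members (also GAS5, DANCR and TUG1) were called higher, while the median of all genes moved to 0.07 and calls went from 1461 higher and 1576 lower to 2756 higher and 711 lower.

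NEAT1 was at 45.7, 47.0 and 45.7 FPKM with pLVX and 65.5, 65.3 and 58.9 FPKM with CD146 overexpression. All 3 overexpression libraries were above all pLVX libraries, and NEAT1 rose by 0.38 ± 0.03 on the log2 scale, or 1.30-fold (edgeR, adjusted p = 2.3e-14). Its share of lncRNA counts was 7.14% ± 0.19 with pLVX and 8.98% ± 0.47 with overexpression. PVT1 was at 1.20, 1.07 and 1.08 FPKM with pLVX and 1.74, 1.77 and 1.63 FPKM with overexpression. Its groups were apart, and it rose by 0.54 ± 0.06 on the log2 scale (edgeR, adjusted p = 9.8e-10).

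The row that maps to HULC needs care. Its ID, ENSG00000285219, spans chromosome 6 from 8435568 to 9294133 on the plus strand in GENCODE v29, where it is named AL591485.1, while RefSeq places HULC itself at 8652269 to 8653856. The row counts transcripts of the whole locus, and HULC cannot be separated from them. It held 47, 51 and 51 counts with pLVX and 78, 90 and 95 counts with CD146 overexpression, with no overlap. The row rose by 0.69 ± 0.16 on the log2 scale (edgeR, adjusted p = 0.0013). In the libraries labelled Hep3B it held 25, 23 and 19 counts with control shRNA and 29, 27 and 17 with CD146 shRNA, which overlap, and the log2 fold change was 0.08 ± 0.28 (edgeR, adjusted p = 0.82). The library with hepatocyte counts, CD146 shRNA replicate 3, was the lowest of its group.

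The other 5 tested members were not called in HepG2. MALAT1 was at 2.54, 2.42 and 2.48 FPKM with pLVX and 3.16, 2.51 and 2.71 FPKM with overexpression, overlapping, with a log2 fold change of 0.10 ± 0.08 (edgeR, adjusted p = 0.39). GAS5 was at 26.5, 28.5 and 28.5 FPKM with pLVX and 30.7, 32.3 and 30.9 FPKM with overexpression. Although these GAS5 values do not overlap, its log2 fold change after TMM scaling was 0.09 ± 0.04 (edgeR, adjusted p = 0.079), and it was called higher under 4 of 16 alternatives. The log2 fold changes of SNHG1, DANCR and TUG1 were -0.02 ± 0.04, 0.09 ± 0.06 and 0.06 ± 0.03, with adjusted p of 0.78, 0.32 and 0.27 (edgeR). As FPKM, which is scaled by library totals alone, these 3 were nonetheless higher in every overexpression library than in every pLVX library. Mitochondrially encoded mRNAs, which took a larger share with CD146 shRNA, made up 9.89% ± 0.14 of the pLVX counts and 8.99% ± 0.21 of the overexpression counts. Of 20 hepatocyte markers, 3 were higher and 10 lower on overexpression, ALB by -0.54 ± 0.03 and AFP by -0.53 ± 0.03 on the log2 scale (edgeR). The part of these shifts in the members' changes was not tested.

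NEAT1 and PVT1 were therefore called higher both when CD146 was lowered in one line and when it was raised in the other. Among genes tested in both comparisons, 453 of 13559 (3.34%) were called higher in both, as were 44 of 1461 lncRNA genes (3.01%). The effect of higher CD146 was compared between the lines directly, as the change on overexpression minus the change from CD146 shRNA to control shRNA. This difference was called for 6 of 8 members, against 36.4% of all genes tested (17.2% called positive). It was 1.92 ± 0.06 on the log2 scale for NEAT1 (edgeR, adjusted p = 1.1e-32), 1.34 ± 0.08 for PVT1 (edgeR, adjusted p = 3.4e-21) and 0.94 ± 0.10 for MALAT1 (edgeR, adjusted p = 2e-11). It was 0.57 ± 0.06 for SNHG1, 0.43 ± 0.06 for TUG1 and 0.78 ± 0.31 for the HULC row, the last close to the threshold (edgeR, adjusted p = 0.045) and not called under 11 of 20 alternative settings or left-out libraries. The line and the way CD146 was altered cannot be told apart in this difference. For GAS5 and DANCR it was 0.10 ± 0.06 and 0.02 ± 0.10, not called, although GAS5 was called under 4 of 21 alternatives and DANCR under 0.

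UCA1, a cytoplasmic RNA linked to bladder cancer, was near the limit of detection. It had 4, 3 and 7 counts with control shRNA and 8, 13 and 8 counts with CD146 shRNA, so the groups were apart. In HepG2 it had 2, 0 and 1 counts with pLVX and 5, 3 and 1 with overexpression, which overlap. Summed over a group, UCA1 was at 0.297 CPM (exact Poisson 95% interval 0.163 to 0.499) with control shRNA and 0.586 CPM (0.393 to 0.842) with CD146 shRNA. These intervals cover counting error only. MEG3 had 0 counts in all control shRNA and all overexpression libraries, 1, 3 and 0 with CD146 shRNA and 1, 0 and 0 with pLVX. A count of 0 over a group allowed up to 0.0637 CPM with control shRNA and 0.0662 CPM with overexpression, taken as 3 counts of the summed total, again for counting error only.

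Between the control libraries of the lines, all 8 tested members were called, where 83.2% of all genes were, 43.4% higher and 39.7% lower in cells labelled Hep3B. GAS5 was at 84.5 ± 0.96 FPKM with control shRNA and 27.8 ± 1.16 FPKM with pLVX (SD, n = 3), and its groups were far apart. The log2 difference of GAS5 was 1.28 ± 0.04 (edgeR, adjusted p = 6.2e-36). PVT1 and MALAT1 were also higher in cells labelled Hep3B, by 1.30 ± 0.06 and 0.52 ± 0.07 on the log2 scale. DANCR (-0.84 ± 0.07), the HULC row (-1.58 ± 0.22) and NEAT1 (-0.47 ± 0.04) were lower there. The sizes depended on scaling and unit: over 21 alternatives NEAT1 ran from -0.51 to -0.15, MALAT1 from 0.43 to 0.84 and DANCR from -0.94 to -0.40, and the HULC row over 20 from -1.72 to -0.06, all called. For SNHG1 and TUG1 the calls depended on it too. They were called lower after TMM (-0.21 ± 0.04 and -0.34 ± 0.04), but with library totals SNHG1 was called higher (0.11) and TUG1 was not called. That scaling moved the median of all genes from 0.08 to 0.39 and calls from 8196 higher and 7497 lower to 10132 and 5799.

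**Figure D3:**
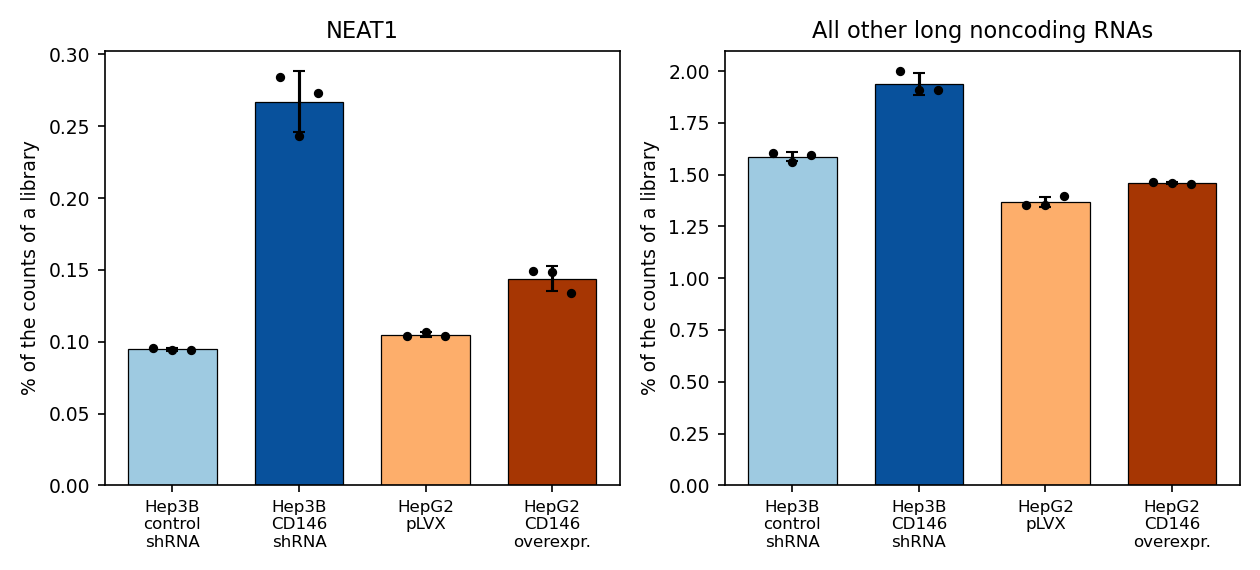
Share of the counts of each library (points) taken by NEAT1 (left) and by all other annotated long noncoding RNA genes together (right), with group means ± SD (bars, from 0). Both shares are highest with CD146 shRNA, at means of 0.267% and 1.94%.

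Across the 12 libraries the genes whose log2 CPM followed NEAT1 most closely, of 9605 compared, were DNAJB9 (Pearson r = 0.98), ABCB1 (0.98) and MOK (0.98). DNAJB9 is an endoplasmic reticulum chaperone and ABCB1 a drug efflux pump. For PVT1 they were CLIP1 (0.99), FSTL3 (0.99) and CCN1 (0.99). CCN1 is a secreted matricellular protein and FSTL3 a binding protein of activins. These values describe 12 libraries that share 4 groups, so they reflect group means and carry no test. Between the members compared, the strongest relation was an opposite one, of GAS5 and DANCR (r = -0.98). NEAT1 followed SNHG1 (r = 0.94). PVT1 followed MALAT1 (r = 0.94) and GAS5 (r = 0.91) and went against DANCR (r = -0.89).

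Few of the nearest protein-coding genes could be tested beside a called member. With CD146 shRNA and on overexpression, 0 of them were called higher along with it. Of all genes tested, 26.8% and 9.55% were called higher in these comparisons, so a count of 0 among so few says little. FRMD8, 9.25 kb from NEAT1, was lower with CD146 shRNA (log2 fold change -0.20 ± 0.08, edgeR, adjusted p = 0.020). MYC, 53.1 kb from PVT1, was lower with CD146 shRNA (-0.24 ± 0.04, edgeR, adjusted p = 1.9e-06) while PVT1 rose, and was at 0.00 ± 0.04 on overexpression. Between the control libraries, however, MYC and PVT1 were both higher in cells labelled Hep3B, 2.38-fold and 2.46-fold. SLC3A2, whose start lies 0.188 kb from that of SNHG1 on the other strand, was lower with CD146 shRNA (-0.40 ± 0.04, edgeR, adjusted p = 3.7e-10) while SNHG1 rose. MORC2, 0.947 kb from TUG1, was not called in either comparison (0.01 ± 0.05 and 0.05 ± 0.05). USP46, 53.1 kb from DANCR, was lower with CD146 shRNA by -0.97 ± 0.10 (edgeR, adjusted p = 1.7e-10). DLK1, the imprinted partner of MEG3, was lower with CD146 overexpression (-1.08 ± 0.05, edgeR, adjusted p = 1.3e-23), where MEG3 itself had 0 counts.

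Promoters are shown for TUG1 and SNHG1, which rose together with CD146 shRNA and of which each has a neighbour starting nearby (RefSeq, GRCh38.p14, 250 bases before to 50 after the start). RefSeq entries of 6 of the 10 members were used, and any entry of PVT1 was left out before the count. Capitals mark CACGTG (an E-box), CCAAT and TATAAA on either strand, so ATTGG and TTTATA are the same motifs read on the other strand.
TUG1, chr22:30969015-30969314, plus strand: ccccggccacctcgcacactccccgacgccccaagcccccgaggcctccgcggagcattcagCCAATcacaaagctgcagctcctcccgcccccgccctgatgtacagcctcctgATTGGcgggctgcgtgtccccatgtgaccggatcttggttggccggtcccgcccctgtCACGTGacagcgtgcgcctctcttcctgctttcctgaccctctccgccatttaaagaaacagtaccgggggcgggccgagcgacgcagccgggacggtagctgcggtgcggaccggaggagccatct
SNHG1, chr11:62855836-62856135, minus strand: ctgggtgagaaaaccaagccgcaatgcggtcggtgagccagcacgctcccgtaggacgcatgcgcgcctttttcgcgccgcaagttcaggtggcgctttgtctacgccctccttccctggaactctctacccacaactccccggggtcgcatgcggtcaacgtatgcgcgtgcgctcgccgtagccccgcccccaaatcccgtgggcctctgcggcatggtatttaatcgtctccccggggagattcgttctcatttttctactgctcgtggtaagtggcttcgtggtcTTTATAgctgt

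The TUG1 promoter held 1 E-box and 2 CCAAT motifs, and that of SNHG1 held 0 of either and 1 TATAAA after the start. Of 35116 promoters in the table, 7.26% held the E-box, 34.6% CCAAT and 11.5% TATAAA. A match is a stretch of letters and says nothing of binding. GAS5 is also known as a transcript with a 5′ terminal oligopyrimidine (TOP) start, a run of C and T that links translation to growth signals. Its annotated transcripts began with at least 5 pyrimidines, the first a C, in 6 of 29 cases, against 2.49% of 28460 lncRNA transcripts. The first 30 bases of 1 of them (GENCODE v29, the run in capitals) are shown because TOP mRNAs are counted below.
GAS5-210: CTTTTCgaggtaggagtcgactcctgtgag

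Of 21 TOP mRNAs of the translation machinery tested with CD146 shRNA, 1 was higher and 15 were lower (median log2 fold change -0.22), while GAS5 was at 0.00. EIF4B, an initiation factor, fell by 0.95 on the log2 scale and RPL4, a ribosomal protein, by 0.36. On overexpression 0 were higher and 8 lower (median -0.06). Of 25 other snoRNA host genes, 4 were higher and 5 lower with CD146 shRNA (median -0.07). SNHG4 (0.45 ± 0.04) and TMEM107 (0.88 ± 0.08) rose, and SNHG29 (-0.31 ± 0.04) and SNHG6 (-0.29 ± 0.05) fell. On overexpression 3 of 23 were higher and 1 was lower, with SNHG5 (0.20 ± 0.05) and ZFAS1 (0.18 ± 0.04) up and SNHG14 (-0.48 ± 0.03) down.

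**Figure D4:**
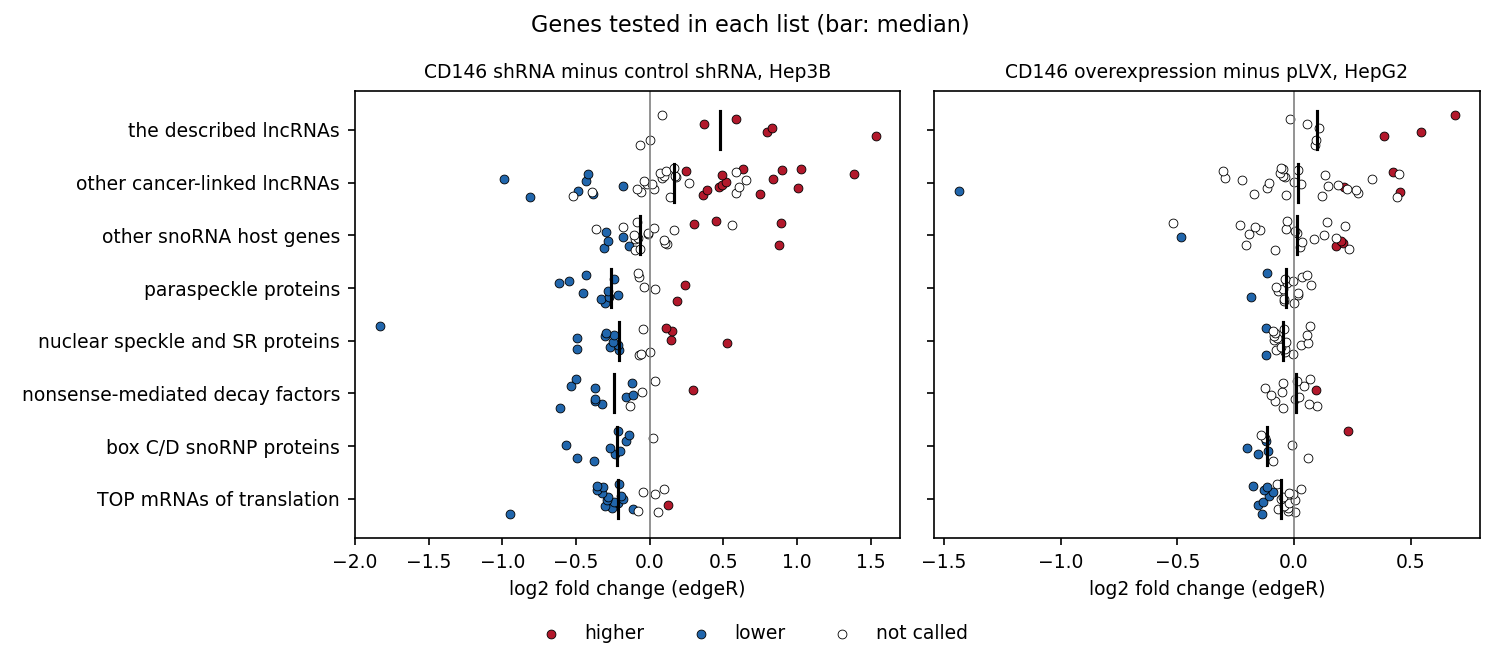
log2 fold change (edgeR) of each tested gene of 8 lists in the 2 comparisons, with the list's median as a bar; red and blue points were called higher and lower, and white points were not called. With CD146 shRNA the medians of the protein lists lie between -0.26 and -0.21, and that of the described lncRNAs is 0.48.

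The protein partners of NEAT1 were more often called lower than higher. Of 16 paraspeckle proteins, 2 were higher and 10 lower with CD146 shRNA (median -0.26), and 0 were higher and 2 lower on overexpression (median -0.03). The NEAT1-binding proteins HNRNPK and SFPQ fell by 0.62 and 0.46 on the log2 scale with CD146 shRNA. NUDT21, a cleavage factor that acts in the choice of NEAT1 isoform, fell by 0.55. Of 18 nuclear speckle and SR proteins, with which MALAT1 is found, 4 were higher and 10 lower (median -0.21), led by SRSF8 (-1.83 ± 0.09), while SRSF11 rose (0.53 ± 0.04). On overexpression 0 were higher and 2 lower. The counts of all lists are edgeR calls, to be read against the 26.8% and 28.5% of all genes called higher and lower with CD146 shRNA, and the 9.55% and 10.3% on overexpression.

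Of 14 nonsense-mediated decay factors, which act on snoRNA host transcripts, 1 was higher and 10 were lower with CD146 shRNA (median -0.25), where 28.5% of all genes were lower, and 1 was higher and 0 lower on overexpression. UPF1, the central helicase of this decay, fell by 0.61 and RBM8A, of the exon junction complex, by 0.50. Of 10 box C/D snoRNP proteins, which bind the snoRNAs of GAS5 and SNHG1, 0 were higher and 9 lower with CD146 shRNA, and 1 was higher and 4 were lower on overexpression. Fibrillarin, FBL, the methyltransferase of these particles, fell by 0.27 in the first and by 0.20 in the second.

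Of 42 other cancer-linked lncRNAs tested with CD146 shRNA, 14 were higher and 7 lower (median 0.16). Of all 2502 lncRNA genes tested, 890 (35.6%) were called higher and 129 lower. The higher calls were near that share, while the lower calls were a larger part of this list than of all lncRNA genes. FENDRR (0.89 ± 0.05), OIP5-AS1 (0.49 ± 0.05) and HOTAIR (0.49 ± 0.07) rose, and MIR17HG, the host of the miR-17 cluster, fell (-0.49 ± 0.07). On overexpression 3 of 29 were higher and 1 lower, among them MIR22HG (0.46 ± 0.13) and the liver RNA FAM99B (-1.43 ± 0.39). Of the 1908 lncRNA genes tested there, 107 (5.61%) were higher and 48 lower, and of all genes 9.55% and 10.3%. Of 18 reported regulators of members, 2 were higher and 10 lower with CD146 shRNA, including YAP1 (-0.78 ± 0.05) and TEAD1 (0.56 ± 0.04), and 1 was higher and 3 lower on overexpression, including EZH2 (-0.26 ± 0.04).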

How the data were processed

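The authors deposited raw counts per Ensembl gene ID and FPKM values for 12 libraries. Per the submitters' processing notes, cutadapt 1.9.1, HISAT2 2.2.1 and HTSeq 0.6.1 were used. The build, annotation and strand setting are not given in the sources used here, so overlapping genes (GAS5 with ZBTB37 and GAS5-AS1, PVT1 with LINC02912 and MIR1205, UCA1 with LINC01764, the HULC row with SLC35B3) may share or lose reads. The deposited FPKM were proportional to the counts within 0.665% over 71192 values of at least 500 counts. Of 61806 IDs, 61757 had a name and 58254 were in GENCODE v29 (GRCh38), which gave coordinates and lncRNA types.

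Groups were taken from the treatment labels. Counts were fitted with edgeR 4.0.16 (R 4.3.3; TMM, filterByExpr, quasi-likelihood), each line alone, and in 1 fit of 12 libraries for the difference and the controls. Standard errors are the fold change over the square root of F. The biological coefficient of variation was 3.79%, 2.92% and 3.47%. Alternatives used DESeq2 1.42.0 and limma 3.58.1. On simulated data with 200 well-counted genes changed by 1 log2 unit, 100% were recovered in the knockdown fit, where 1.48% of calls were false. The false share was 5.21% in the overexpression fit. Smaller changes, and changes of rows with few counts such as the HULC row, were not simulated. Levels are FPKM as deposited. A count of 0 was read as at most 3 counts.

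The members and lists were chosen with earlier results of these data known. Named were all members, MCAM, the nearest protein-coding gene on each side, up to 4 called genes of a list with the smallest adjusted p, and the 3 genes most correlated with members called in both comparisons. Some genes that this rule names are not reported here. Of the 6 genes of the imprinted DLK1-MEG3 locus, 1 was tested in each line. DIO3OS was called lower with CD146 shRNA (log2 -1.21 ± 0.37), at 0.03 to 0.15 FPKM against 0.15 to 0.25 with control shRNA. Its groups overlapped, and its lowest CD146 shRNA library held 4 counts. Replicates of a group differed by more than counting noise (chi-square per gene 1.74 to 3.93).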

Additional observations from a re-analysis of the deposited data

Results flagged for a closer look

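The effect of higher CD146 differed between HepG2 and the cells labelled Hep3B for 6 members, by an interaction term in 1 edgeR fit of 12 libraries. The difference on the log2 scale was 1.92 for NEAT1, 1.34 for PVT1, 0.94 for MALAT1, 0.78 for the HULC row, 0.57 for SNHG1 and 0.43 for TUG1. For NEAT1 and PVT1 the transcript was higher at both the lowered and the raised CD146, while for MALAT1, SNHG1 and TUG1 it was called higher with the shRNA and not called on overexpression. The HULC row was called on overexpression and not with the shRNA. Line and method of perturbation cannot be told apart in these differences.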

How the results depend on the processing

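With CD146 shRNA the 5 called members were called under all 16 alternatives, and NEAT1 and PVT1 were called on overexpression under all 16. Leaving out 1 library at a time gave 5 members called with the shRNA, 3 on overexpression, 5 to 6 for the difference and 8 for the controls. It gave 8645 to 8894, 2262 to 2675, 6251 to 6631 and 15332 to 16063 of all genes. The HULC row was called on overexpression under 13 of 15 alternatives and for the difference under 9 of 20, where the call was lost, among others, without control shRNA replicate 1 or 3, CD146 shRNA replicate 1 or 2, pLVX replicate 2, or overexpression replicate 2 or 3. On overexpression DESeq2 called 1839 genes against 3037, and library totals without TMM called 6 members against 3. For the controls, a mean of at least 5 CPM left 10432 genes called against 15693, as fewer genes were tested. SNHG1 between the controls reversed to 0.106 with library totals, 0.106 with limma on log2(FPKM + 0.1) and 0.104 on log2(FPKM + 1), and TUG1 was not called under 3 of 21. With limma on log2(FPKM + 0.1) calls were 1585 higher and 491 lower on overexpression and 10096 higher and 5754 lower for the controls, and on log2(FPKM + 1) 1563 and 493, and 10049 and 5738. Same-numbered libraries deviated together with r of 0.10, 0.05 and 0.03 for the shRNA and -0.04, -0.04 and 0.02 for overexpression. Libraries with unlike numbers gave -0.107 to 0.066 and -0.05 to 0.084. With 3 libraries in a group, these values cannot show whether the numbers pair the samples, and the main fits were unpaired. With the replicate block 5, 3 and 5 members and 9543, 2947 and 6847 of all genes were called with the shRNA, on overexpression and for the difference. For the controls the block fit called 8 members and 14479 of all genes. There it set the lines against each other at replicate 1 of the cells labelled Hep3B and replicate 3 of HepG2, not at group means. It is thus not the same comparison, though it is counted among the alternatives for the controls. Depth limits UCA1, MEG3 and the HULC row, where 3 counts correspond to 0.166 to 0.235 CPM in a library.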
